A study of Mus musculus with 3 samples.

Results

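Immediate early genes and heat shock genes were followed through the immune cells of the mouse infrarenal aorta, which runs below the kidney arteries. The set was a fixed list of 37 symbols, 25 immediate early and 12 heat shock genes, found by symbol among the 32285 genes of the deposited count matrices. All 37 had an entry. CD45-positive cells, that is leukocytes, of wild-type mice were profiled by droplet-based single-cell RNA sequencing of 3′ ends in 3 libraries of 1 pool of aortas each, so no group had a replicate and no test between groups could be made. Sham aortas received phosphate-buffered saline (PBS). AAA_14 aortas received elastase, which digests elastic fibres and is used to induce abdominal aortic aneurysm (AAA). The third library is titled AAA_7, which names an aneurysm, but its treatment label gives PBS, so its treatment is in doubt and it is called the library titled AAA_7. The labels do not give the unit of 7 and 14, nor strain or age, and state pools of 20 aneurysm and 50 control aortas. AAA_14 against Sham was therefore the main comparison.

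Immediate early genes are transcribed within minutes of a stimulus without new protein synthesis. Many encode transcription factors of the AP-1, EGR and NR4A families, and others encode inhibitors that end the response, such as the IκB proteins and the phosphatase Dusp1. Heat shock genes encode chaperones, which hold and refold proteins, and the inducible ones among them are switched on by heat shock factor 1 when unfolded proteins accumulate. Both sets are also known to be induced while tissue is digested with warm enzymes. By the labels all 3 libraries had the same digestion, with collagenase, hyaluronidase and DNase for 1 hour at 37 °C, and the part of handling in the values below was not tested.

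Barcodes with at least 200 genes and at most 10% of UMIs (unique molecular identifiers, the molecules counted) from mitochondrial genes left 1235 cells of Sham, 3229 of the library titled AAA_7 and 5286 of AAA_14, with medians of 3659, 2581 and 6967.5 UMIs per cell. The mitochondrial limit removed 65.4%, 6.98% and 46.9% of barcodes, so the library titled AAA_7 stood apart in this measure. Each cell was given a class where at least 2 markers of that class had a UMI and led the next class by at least 2. None of the 37 genes was a marker. Between 10.8% and 15.5% of cells in a library stayed unassigned, and 3 to 103 cells of a compared class lay at the minimum lead. In each compared class the median cell carried 5 to 10 of its own markers and 0 to 2 of any other class. In the order Sham, AAA_7 and AAA_14, neutrophils numbered 112, 740 and 818 cells, T cells 428, 466 and 906, B cells 459, 468 and 1415, and NK cells 73, 151 and 79. Phagocytes (macrophages and monocytes) numbered 4, 842 and 1035 and dendritic cells 11, 29 and 105, so phagocytes could be compared between AAA_14 and AAA_7 alone and dendritic cells are described in AAA_14 alone. Pairs of libraries shared 5 to 12 barcodes.

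The 2 gene sets were highest in different cell classes. Among classes of at least 50 cells, immediate early genes took their largest share of UMIs in neutrophils and then phagocytes. In the same classes heat shock genes took theirs in B cells and their smallest in neutrophils. In neutrophils the 25 immediate early genes together made up 1.71% (1.67 to 1.74) of UMIs in Sham, 3.67% (3.64 to 3.69) in the library titled AAA_7 and 2.06% (2.04 to 2.07) in AAA_14, with exact 95% intervals that cover counting error only. In T cells these shares were 0.428%, 0.86% and 0.577%. B cells had 0.831%, 0.856% and 0.608%, and NK cells 0.881%, 1.16% and 0.843%. Neutrophils thus had the highest share in every library among the classes of at least 50 cells. The library titled AAA_7 had the highest share in neutrophils, T cells and NK cells and, by a narrow margin, in B cells. Phagocytes held 1.83% in AAA_7 and 1.92% in AAA_14, and dendritic cells 0.73% in AAA_14.

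For the 12 heat shock genes B cells stood highest in every library among the classes of at least 50 cells. They devoted 1.39% (1.38 to 1.41) of UMIs to them in Sham, 1.91% (1.88 to 1.93) in the library titled AAA_7 and 1.07% (1.06 to 1.07) in AAA_14. In T cells the shares were 0.94%, 1.15% and 0.908%, and in NK cells 0.712%, 1.44% and 0.749%. Phagocytes held 1.05% in AAA_7 and 0.729% in AAA_14. Neutrophils were lowest, with 0.231%, 0.369% and 0.256%. Gene by gene, neutrophils were the lowest class for 12, 10 and 11 of the 12 heat shock genes in Sham, AAA_7 and AAA_14, and B cells the highest for 10, 8 and 8. Neutrophils were the highest class for 13, 13 and 11 of the 25 immediate early genes. They were the lowest class for 7, 1 and 3 of the 25.

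**Figure D1:**
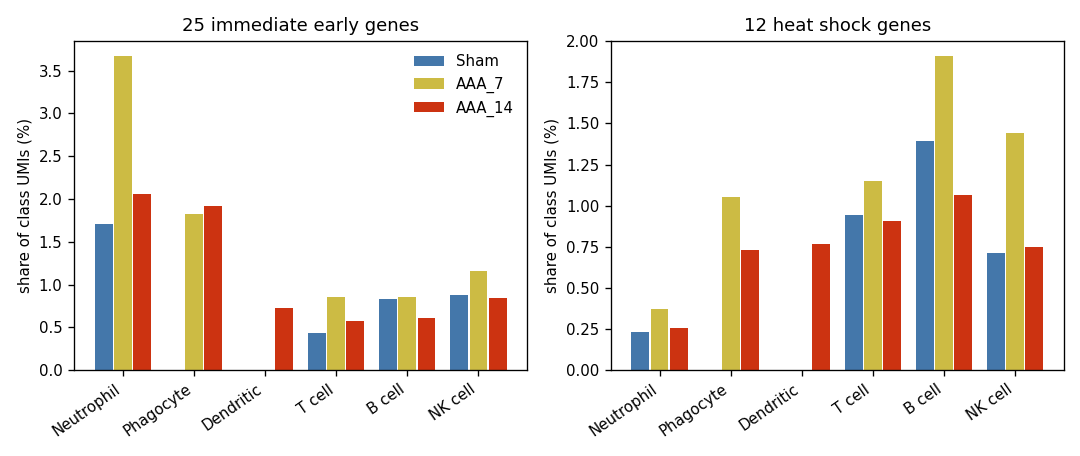
Share of UMIs (percent) taken by the 25 immediate early and the 12 heat shock genes in each cell class of at least 50 cells, by library. Immediate early genes reach 3.67% in neutrophils of the library titled AAA_7, whereas heat shock genes are lowest in neutrophils and reach 1.91% in B cells of that library.

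The AP-1 genes encode the FOS and JUN proteins, which pair to bind DNA, and CREB-related ATF3, which can pair with them. Junb measured, in neutrophils, 2262 CPM in Sham, 4491 CPM in the library titled AAA_7 and 3063 CPM in AAA_14, where CPM is the count of UMIs scaled to 1000000 UMIs of that class and library. The UMIs of 3′ libraries count molecules and were not divided by gene length. Fos had the opposite order of libraries in the same cells, with 2556 CPM in Sham, 332 CPM in the library titled AAA_7 and 1427 CPM in AAA_14. Fos was therefore low and Junb high in the library titled AAA_7. In B cells Fos measured 629, 188 and 274 CPM in the same order of libraries, in NK cells 504, 183 and 238 CPM and in T cells 261, 200.1 and 227 CPM. Sham had the highest Fos level in each of these 4 classes and AAA_7 the lowest. In phagocytes Fos was 1149 CPM in AAA_7 and 1473 CPM in AAA_14.

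Jun was 822, 433 and 641 CPM in neutrophils and 1077, 447 and 636 CPM in B cells, again lowest in AAA_7, and reached 1279 CPM in phagocytes of AAA_14. Jund, the JUN protein that many resting cells hold, stood at 419, 648 and 664 CPM in T cells and 1184, 893 and 806 CPM in B cells. Fosb was highest in phagocytes of AAA_14, at 643 CPM against 238 CPM in AAA_7. Within AAA_14, Atf3 was highest in phagocytes and then neutrophils, with 610.2 CPM and 213 CPM, against 26.9 CPM in T cells. Neutrophils had 299 CPM in Sham and 220 CPM in AAA_7, and phagocytes of AAA_7 had 527 CPM.

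Among the NF-κB inhibitors, Nfkbia encodes IκBα, which holds NF-κB in the cytoplasm and is itself induced by it. In neutrophils Nfkbia measured 1068 CPM in Sham, 10761 CPM in the library titled AAA_7 and 2611 CPM in AAA_14. Its AAA_7 level was the highest of any of the 37 genes in any compared class, and in that library it alone made up a large part of the immediate early share of neutrophils. Nfkbiz, which encodes the nuclear IκBζ, followed the same order at 765, 2596 and 939 CPM, and Nfkbid, which encodes IκBNS, at 199.7, 691 and 261 CPM. In T cells Nfkbia measured 249, 839.6 and 342 CPM and in B cells 174, 412 and 229 CPM, with the AAA_7 library highest again. Phagocytes had 2498 CPM in AAA_7 and 1069 CPM in AAA_14.

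Because Fos and Nfkbia differed in opposite directions in the same cells, the 250 bases before their annotated starts are shown, from the RefSeq promoter table (GRCm38.p6). Fos lies on the plus strand of chromosome 12 at chr12:85473890-85477273, with 4 exons, and the window is chr12:85473640-85473889. Nfkbia lies on the minus strand of chromosome 12 at chr12:55489410-55492647, and the window is chr12:55492648-55492897. Both are written 5′ to 3′ along the gene. Capitals mark TGACG, the core of the element bound by CREB and ATF proteins, TATAAA in Fos and, in both genes, a match to the κB site, the element bound by NF-κB.
Fos: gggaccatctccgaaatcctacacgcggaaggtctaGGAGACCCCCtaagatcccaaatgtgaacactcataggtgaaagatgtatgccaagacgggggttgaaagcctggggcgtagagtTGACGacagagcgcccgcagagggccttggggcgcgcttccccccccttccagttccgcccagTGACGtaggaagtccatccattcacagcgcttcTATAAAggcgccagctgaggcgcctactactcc
Nfkbia: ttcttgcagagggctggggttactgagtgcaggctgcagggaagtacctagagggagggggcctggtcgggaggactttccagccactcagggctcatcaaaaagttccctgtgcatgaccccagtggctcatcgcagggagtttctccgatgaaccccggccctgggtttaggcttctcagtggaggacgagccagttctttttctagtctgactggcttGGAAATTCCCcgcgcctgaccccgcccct
In Fos, TGACG lies 129 to 125 and 66 to 62 bases before the start and TATAAA 33 to 28 bases before it. The κB site match lies 214 to 205 bases before the start in Fos and 29 to 20 bases before it in Nfkbia. Of the 25 immediate early genes, 20 had a promoter in the table. TGACG was in 12 of the 20, against 19.8% of the 27025 genes of the table, searched on both strands over all promoters of a gene. The κB site was in 5 of the 20 (Fos, Fosb, Ier3, Nfkbia and Nfkbid), against 4.46% of genes. The full palindrome TGACGTCA, which contains TGACG, was in 3 of the 20 (1.77% of genes), the CArG box bound by serum response factor in 2 (1.62%), TATAAA in 2 (14.3%), and TGANTCA, the AP-1 site, in 0 (7.82%). These matches describe letters in the windows and not binding.

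The zinc-finger EGR genes were lower overall. Egr1 was highest in phagocytes and neutrophils, with 305, 810.1 and 646 CPM in neutrophils in the order Sham, AAA_7 and AAA_14, and 442 and 923 CPM in phagocytes of AAA_7 and AAA_14. Egr2 was near the floor in neutrophils of Sham, with 0 UMIs, and measured 46.1 CPM in AAA_7 and 8.32 CPM in AAA_14. Egr3 was highest in B cells, at 169, 222 and 71.4 CPM. The orphan nuclear receptors of the NR4A family showed a class preference too. Nr4a2 was highest in NK cells, at 373, 702 and 366 CPM, and the highest Nr4a3 level was that of neutrophils of AAA_7, at 464 CPM against 86.2 CPM in Sham and 65.6 CPM in AAA_14. Nr4a1, which antigen receptor signals induce in lymphocytes, measured 446, 571 and 208 CPM in B cells and 139, 319 and 153 CPM in T cells. All 3 NR4A genes were highest in the library titled AAA_7 in each of the neutrophils, T, B and NK cells.

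The next group are genes whose products end or limit the response. Zfp36 encodes tristetraprolin, which speeds the decay of AU-rich mRNAs, and measured 2701, 3805 and 3476 CPM in neutrophils. Dusp1, a phosphatase of MAP kinases, measured 2357, 2934 and 2262 CPM. Both stayed within 2-fold across the libraries in this class. Dusp2 was 39.9, 355 and 124 CPM, with a wide gap between Sham and AAA_7. The growth inhibitor Btg2 was 843, 1106 and 1077 CPM. Ier3, Ier2 and Ier5 are response genes of which Ier3 is a known NF-κB target. Ier3 was far higher in neutrophils and phagocytes than in lymphocytes, at 370.0, 2857 and 779 CPM in neutrophils and 1015 and 371 CPM in phagocytes of AAA_7 and AAA_14, against 5.7, 109 and 6.25 CPM in T cells. Ier5 measured 256, 1176 and 573 CPM in neutrophils and Ier2 391, 412 and 429 CPM. Of the remaining transcription factors, Klf6 was 536, 1143 and 572 CPM in neutrophils, and Klf4, a factor of myeloid cells, was highest in phagocytes of AAA_7, at 367 CPM. The growth regulator Myc stayed between 7.5 and 25.2 CPM in neutrophils and was highest in B cells of Sham, at 166 CPM.

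**Figure D2:**
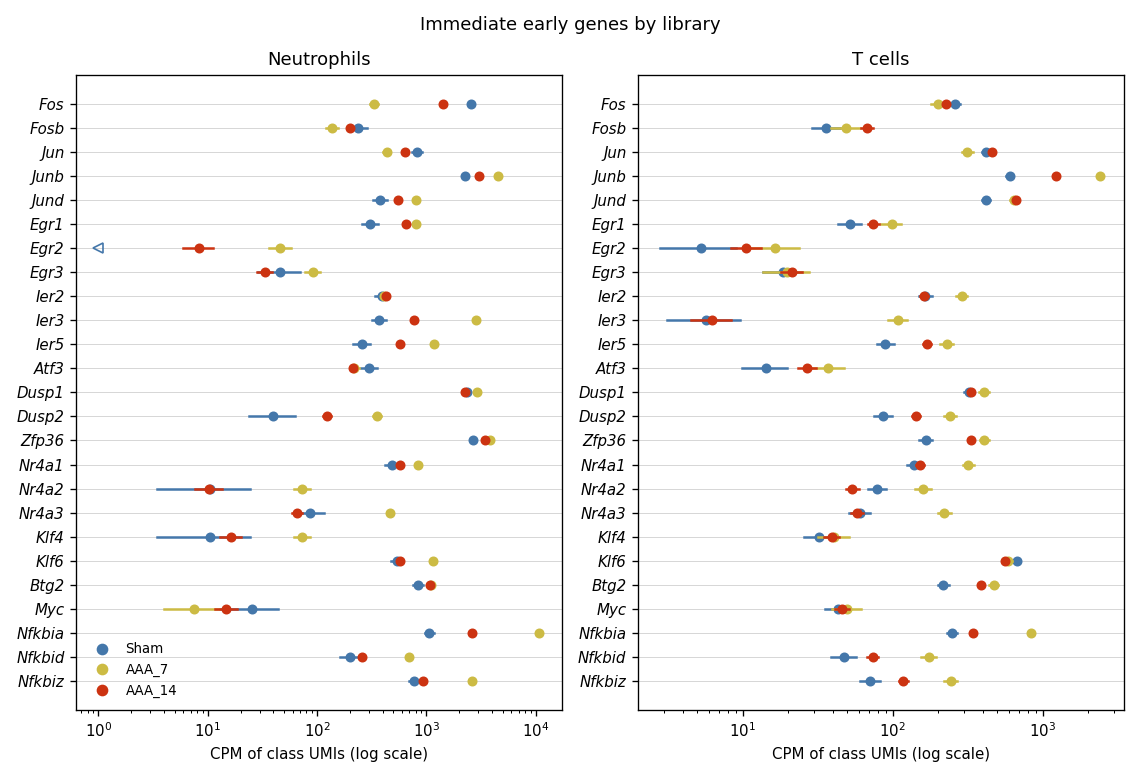
Levels (CPM, log axis) of immediate early genes in neutrophils (left) and T cells (right) of the 3 libraries. Lines are exact 95% counting intervals, and an open triangle is a gene with 0 UMIs (Egr2 in neutrophils of Sham). In neutrophils Nfkbia spans 1068 to 10761 CPM and Fos 332 to 2556 CPM, in opposite order of the libraries.

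In neutrophils of AAA_14 against Sham, 6 of 25 immediate early genes were at least 2-fold higher and 0 lower, and 0 of 12 heat shock genes reached 2-fold in either direction. A gene was tested where its UMIs in the 2 libraries came to 30 or more, and of all tested genes 19.7% were at least 2-fold higher and 3.44% lower. Among genes with a mean of at least 100 CPM over the 2 libraries, 4 of 18 immediate early genes were higher and 0 lower. Heat shock genes had 0 of 7 higher and 0 lower, both lists beside 9.13% and 1.73% of all such genes. This second background, of abundant genes, was chosen after seeing the data and leaves out rare genes, whose ratios hold the most counting error. The median log2 ratio was 0.29 for immediate early genes and -0.034 for heat shock genes, beside 0.24 for all genes, where 1 is a 2-fold difference. The 6 include Egr2, with 0 UMIs in Sham, whose ratio depends on the count added: it was -0.17 with 5 counts added, and against a floor of 3 UMIs in Sham it was at least 1.32-fold higher, short of 2-fold. The other 5 were Dusp2 at 1.60 (0.98 to 2.38), Nfkbia at 1.29 (1.16 to 1.42), Ier5 at 1.15, Egr1 at 1.08 and Ier3 at 1.07, as log2 ratios with exact 95% counting intervals. Fos had the lowest ratio, -0.84. At a mitochondrial limit of 5% none of the last 5 reached 2-fold, with Dusp2 at 0.82, Nfkbia at 0.64, Ier5 at 0.54, Egr1 at 0.42 and Ier3 at 0.31. The immediate early median was then -0.20.

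Immediate early levels moved with the mitochondrial share within this library. Among neutrophils of AAA_14, the 25 genes summed to 9055 CPM of nuclear-gene UMIs in the 101 cells with up to 2.5% mitochondrial UMIs and to 17502 CPM in the 304 cells between 2.5 and 5%. They reached 36012 CPM in the 413 cells between 5 and 10% and 49062 CPM in the 234 cells between 10 and 20%, which the main limit removed. Median depth went the other way over these 4 ranges, from 8497 to 2566 UMIs per cell. B cells of AAA_14 also rose from the range of 2.5 to 5% to that of 10 to 20%. Immediate early genes went there from 4517 to 9905 CPM and heat shock genes from 9470 to 15082 CPM. B cells of Sham went from 9092 to 8633 CPM and from 15253 to 14256 CPM between the ranges of 5 to 10% and 10 to 20%. Kinds of cells within a class, described below as clusters, also differed in depth. In AAA_14 neutrophils the median was 8768 UMIs per cell in cluster 12, 3321 in cluster 7 and 3216.5 in cluster 2. In AAA_14 B cells the median was 12938 in cluster 15, 4095.5 in cluster 0 and 4285 in cluster 3. The mix of kinds in each range was not measured. Its part in these values and in those at a limit of 5% was not tested. The mitochondrial share of neutrophil UMIs in Sham, AAA_7 and AAA_14 was 2.31%, 0.884% and 4.30%, and its part in the differences between libraries was not tested.

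Neutrophils of the library titled AAA_7 had higher immediate early levels than those of Sham. Of 24 tested immediate early genes 13 were at least 2-fold higher and 1 lower, and 2 of 12 heat shock genes were higher, beside 29.3% of all genes higher and 8.38% lower. With a mean of 100 CPM or more, 10 of 20 immediate early genes were higher and 1 lower. The heat shock list had 2 of 8 higher and 0 lower, both lists beside 30.4% and 8.89% of all such genes. The medians were 1.09 for immediate early genes, 0.65 for heat shock genes and 0.42 for all genes. The heat shock median was 1.15 at a mitochondrial limit of 5% and -0.080 with means over cells of log2 levels. Nfkbia led the genes with UMIs in both libraries, at 3.33 (3.21 to 3.46), followed by Dusp2 at 3.12, Ier3 at 2.95 (2.73 to 3.17), Klf4 at 2.67 and Nr4a2 at 2.67. Egr2 was at least 7.31-fold higher. In Sham, Klf4 and Nr4a2 were each near the floor, at 10.5 CPM. Nr4a3, Ier5, Nfkbid and Nfkbiz were higher by 2.41, 2.19, 1.78 and 1.76. The remaining 5 of the 15 were Egr1, Klf6, Jund, Hspa5 and Hspa1a, between 1.09 and 1.41. The single lower gene was Fos, at -2.95 (-3.09 to -2.80). At equal depth, with each cell thinned to 1000 UMIs, the share of neutrophils with a Fos UMI in Sham, AAA_7 and AAA_14 was 87.3%, 23.6% and 68.2% (97.3%, 34.6% and 93.4% before thinning), and with an Nfkbia UMI 32.7%, 94.4% and 62.7% (57.1%, 97.2% and 84.5%).

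Markers of other cells also differed between the neutrophils of the 3 libraries. The 11 phagocyte markers summed to 25.2, 578 and 279 CPM in Sham, AAA_7 and AAA_14, with 3, 11 and 11 of them detected and C1qa, C1qb and C1qc at 0 in Sham. The 10 B cell markers summed to 465, 3693 and 516 CPM, all 10 detected in each library. Ighm, the heavy chain of IgM, was counted in AAA_7 neutrophils at 114% of its B cell level, in 21.9% of the cells. The 5 plasma cell markers summed to 14.7, 545 and 1309 CPM and the 5 erythroid markers to 27.3, 9.8 and 735 CPM. The 11 neutrophil markers themselves summed to 339223, 98976 and 240073 CPM. The part of these in the differences was not tested.

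Against the library titled AAA_7, AAA_14 neutrophils had 1 immediate early gene at least 2-fold higher and 11 lower of 25, and 2 of 12 heat shock genes lower, beside 10.6% and 11.3% of all genes. Of genes at a mean of 100 CPM or more, 1 of 20 immediate early genes was higher and 7 lower. Heat shock genes had 0 of 8 higher and 1 lower, both lists beside 5.82% and 19.8% of all such genes. The higher gene was Fos, at 2.10. Nr4a3 and Nr4a2 were lowest, at -2.82 and -2.82, then Egr2 at -2.46, Klf4 at -2.17 and Nfkbia at -2.04. The lower heat shock genes were the mitochondrial chaperonin pair Hspe1 and Hspd1, at -1.34 and -1.16. In AAA_7 neutrophils 1 cell held 26.2% of the Hspd1 UMIs, and without the top cell of each library the Hspd1 ratio was -0.80, within 2-fold. The 3 comparisons share libraries and are not independent of each other.

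**Figure D3:**
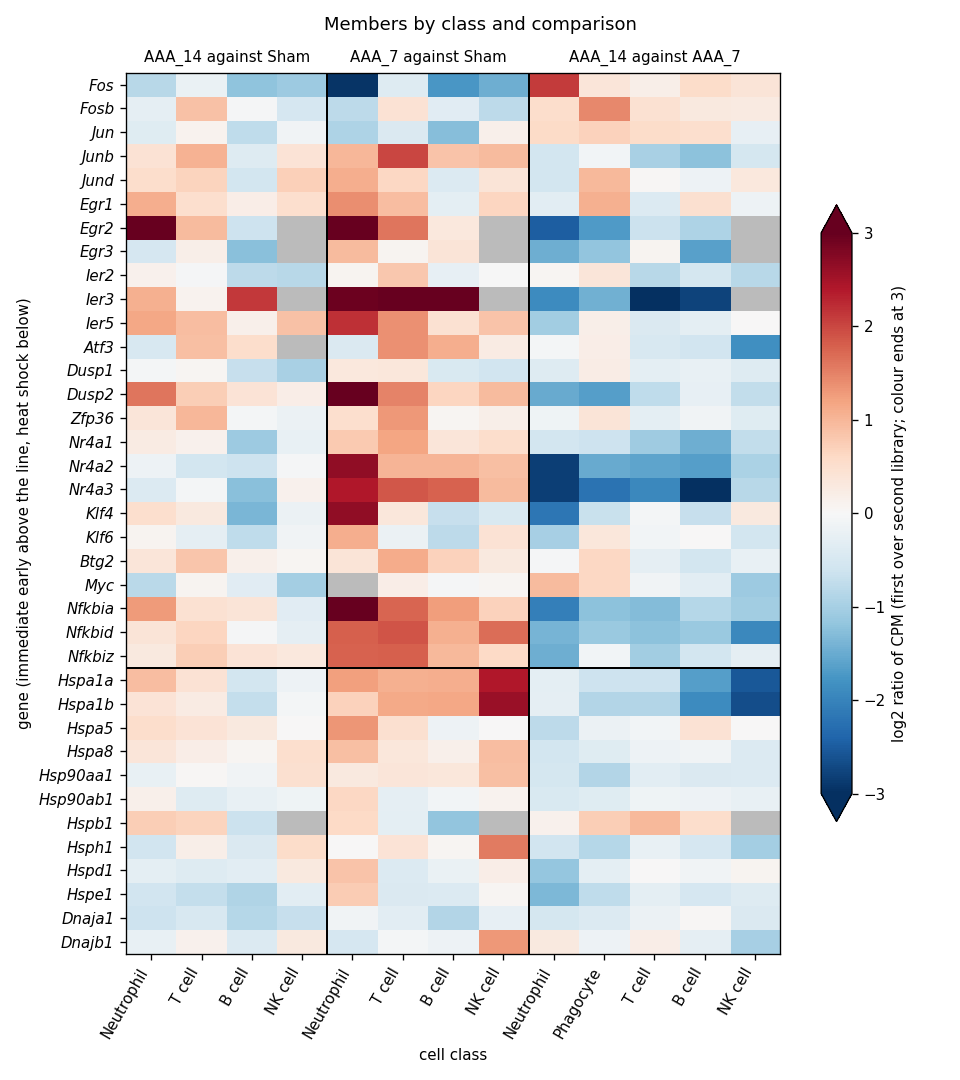
Log2 ratios of the 37 genes (rows) in the 13 comparisons of a cell class between libraries (columns), with colours ending at 3 and grey where a gene had under 30 UMIs in both libraries together. The columns of AAA_7 against Sham hold most of the high values. Fos lies below 0 there in every class, at -2.95, -1.74 and -1.46 in neutrophils, B and NK cells. In T cells it lies less far below, with 200.1 CPM in AAA_7 against 261 CPM in Sham.

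The libraries also held different kinds of neutrophils, which differed in immediate early level. Clusters made without the 37 genes, an alternative partly added after the data were seen, split the class into cluster 2, led by Acod1, Csf1 and Slc7a11, cluster 7, led by Retnlg and Csf3r, and cluster 12, led by the granule genes Camp, Ngp and Ltf. Cluster 2 held 662 of the 740 class cells in AAA_7 and 182 of 818 in AAA_14, while 3 cells of the cluster came from Sham, so its part cannot be told apart from the library in Sham against AAA_7. The 25 immediate early genes summed to 45429 CPM in AAA_7 and 55643 CPM in AAA_14 there. In cluster 7 they summed to 37422 CPM in Sham (49 cells) and 32841 CPM in AAA_14 (375 cells), and in cluster 12 to 9371, 6532 and 6189.9 CPM in Sham, AAA_7 and AAA_14 (54, 20 and 214 cells). Cluster 12 stood below the other two in each library measured.

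Within cluster 2, AAA_14 against AAA_7 had 4 immediate early genes higher and 1 lower of 24, beside 7.62% and 6.15% of all genes there, where the whole class had 1 higher and 11 lower. The median was 0.22 beside 0.038 for all genes. Nfkbia was 13692 CPM in AAA_7 and 11002 CPM in AAA_14, and 2908 and 3194 CPM in cluster 7 of Sham and AAA_14. Within these 2 clusters its levels stayed within 2-fold. In cluster 12 it measured 389, 1506 and 394 CPM in Sham, AAA_7 and AAA_14, with 20 cells in AAA_7. Fos still differed, at 303 CPM in AAA_7 and 1698 CPM in AAA_14 in cluster 2, a log2 ratio of 2.48. Fosb, Atf3 and Zfp36 were higher by 1.59, 1.43 and 1.07, and Klf4 was lower at -1.11. In cluster 12 Fos measured 2025, 113 and 799 CPM in Sham, AAA_7 and AAA_14, and in cluster 7 4363 and 2632 CPM in Sham and AAA_14. AAA_14 against Sham in cluster 12 had 0 of 20 genes higher and 3 lower, beside 13.8% and 4.01% of all genes. The 3 were Nr4a3 at -1.92, Fos at -1.34 and Nfkbiz at -1.04.

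**Figure D4:**
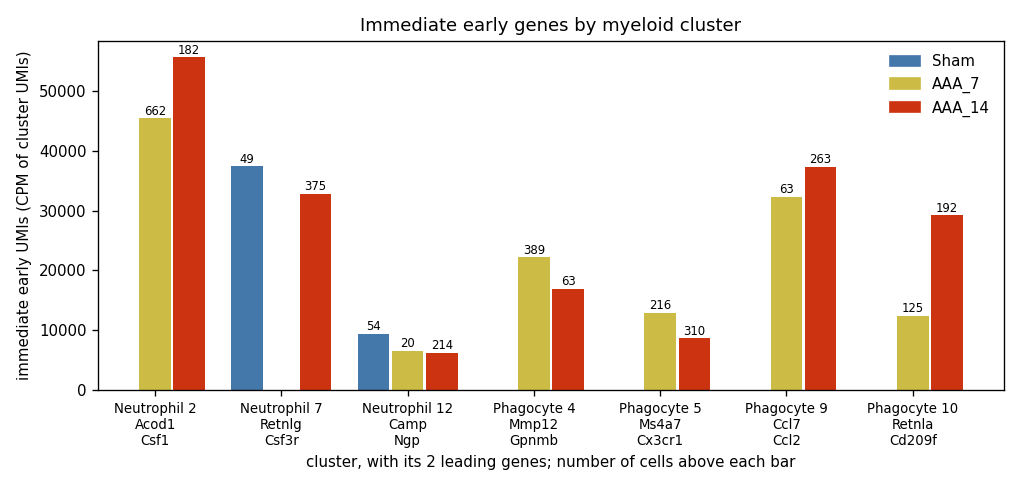
Summed level (CPM) of the 25 immediate early genes in clusters of neutrophils and phagocytes made without these genes, by library, with the number of cells above each bar. Cluster 2 of the neutrophils reaches 45429 and 55643 CPM in AAA_7 and AAA_14, against 6532 and 6189.9 CPM in cluster 12 of the same libraries.

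In phagocytes, which engulf debris and lead the repair of the vessel wall, AAA_14 could be set only against the library titled AAA_7. There 2 of 25 immediate early genes were at least 2-fold higher and 8 lower, and 0 of 12 heat shock genes reached 2-fold, beside 5.68% of all genes higher and 2.72% lower. At 100 CPM or more, 2 of 21 immediate early genes were higher and 5 lower, and 0 of 11 heat shock genes were higher and 0 lower, beside 2.7% and 3.47% of all such genes. Fosb was higher by 1.43 (1.35 to 1.52) and Egr1 by 1.06, which was 0.99 after centring on the median of all genes. Nr4a3 was lower at -2.22, Egr2 at -1.70, Dusp2 at -1.66, Nr4a2 at -1.51, Ier3 at -1.45 and Nfkbia at -1.22. Egr3 and Nfkbid followed at -1.17 and -1.12. Fosb and Egr1 therefore lay on the other side of 0 from Nr4a2, Nr4a3, Nfkbia and Nfkbid. The other NR4A and IκB genes of the list, Nr4a1 and Nfkbiz, stayed within 2-fold, with Nfkbiz at 750 CPM in AAA_7 and 705 CPM in AAA_14. The list's median was 0.18 beside 0.073 for all genes. Several lists of markers of other cells were higher in phagocytes of AAA_14 than of AAA_7, with erythroid markers at 4.35 and 1408 CPM in AAA_7 and AAA_14, fibroblast markers at 30.7 and 347 CPM, plasma cell markers at 42.4 and 437 CPM and neutrophil markers at 879 and 2031 CPM. Their part was not tested.

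Both patterns varied over the 4 largest phagocyte clusters. In cluster 10, led by Retnla, Cd209f and Lyve1, genes of resident macrophages, 13 of 24 immediate early genes were higher in AAA_14 and 3 lower, beside 5.07% and 3.36% of all genes, with Fosb at 2.40, Zfp36 at 1.93, Fos at 1.82 and Btg2 at 1.78. In cluster 5, led by Ms4a7 and Cx3cr1, 0 of 24 were higher and 8 lower, beside 4.65% and 2.32% of all genes. Cluster 4, led by Mmp12, Gpnmb, Spp1 and Arg1, with 389 cells in AAA_7 and 63 in AAA_14, had 1 higher and 7 lower of 24, beside 5.01% and 6.15% of all genes. Cluster 9, led by Ccl7, Ccl2 and Il10, had 3 higher and 4 lower of 25, beside 5.13% and 6.06%. Nr4a3 and Egr2 were lower in AAA_14 in all 4, with Nr4a3 at -1.84, -2.80, -1.15 and -1.50 and Egr2 at -1.82, -1.40, -1.41 and -1.28 in clusters 4, 5, 9 and 10. Nfkbia was lower by at least 2-fold in clusters 4 and 5, at -1.26 and -1.75, and was 0.31 in cluster 10. Levels summed over the list were 22189 and 16894 CPM in cluster 4, 12928 and 8655 CPM in cluster 5, 32275 and 37372 CPM in cluster 9 and 12397 and 29206 CPM in cluster 10 of AAA_7 and AAA_14.

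T cells of AAA_14 differed little from Sham in these genes. Of 25 immediate early genes 2 were at least 2-fold higher and 0 lower, and 0 of 12 heat shock genes reached 2-fold, beside 24.5% of all genes higher and 1.73% lower. Among genes with a mean of at least 100 CPM, 2 of 13 immediate early genes were higher and 0 lower. The heat shock list had 0 of 11 higher and 0 lower, both lists beside 9.35% and 1.29% of all such genes. Junb was 604, 2407 and 1236 CPM in Sham, AAA_7 and AAA_14, a log2 ratio of 1.03 for AAA_14 against Sham, and Zfp36 166, 410.2 and 333 CPM, a ratio of 1.00. The median of all genes was itself 0.47, and after centring on it the ratios were 0.56 for Junb and 0.53 for Zfp36. The list's median was 0.46, level with that background, and -0.011 after centring.

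In T cells of the library titled AAA_7 against Sham, 14 of 25 immediate early genes were at least 2-fold higher and 0 lower, and 2 of 12 heat shock genes were higher, beside 23.1% of all genes higher and 2.61% lower. With a mean of 100 CPM or more, 11 of 17 immediate early genes were higher and 0 lower. Heat shock genes had 2 of 11 higher and 0 lower, both lists beside 14.5% and 2.84% of all such genes. The list's median was 1.12 and that of all genes 0.45, and with means over cells of log2 levels it was 0.24. Ier3 had the widest gap, at 4.20 (3.47 to 5.15), followed by Junb at 1.99, Nfkbid at 1.88, Nr4a3 at 1.87, Nfkbiz at 1.78 and Nfkbia at 1.76 (1.62 to 1.90). Egr2, Dusp2, Atf3 and Ier5 were higher by 1.60, 1.49, 1.38 and 1.36. In Sham T cells 65.7% of the Atf3 UMIs came from 1 cell, and without the top cell of each library the Atf3 ratio was 2.64. The other members past 2-fold were Zfp36, Nr4a1, Btg2, Nr4a2, Hspa1b and Hspa1a. With TMM factors of edgeR in place of the class total, or centred on the median of all genes, 8 genes over the 2 lists together were called in place of 16. AAA_14 against AAA_7 had 0 of 25 higher and 7 lower, beside 3.77% and 2.95% of all genes, with Ier3 at -4.11, Nr4a3 at -1.93, Nr4a2 at -1.58, Nfkbia at -1.30, Nfkbid at -1.24, Nr4a1 at -1.06 and Nfkbiz at -1.05. Of genes at a mean of 100 CPM or more, 0 of 17 immediate early genes were higher and 6 lower. The heat shock list had 0 of 11 higher and 0 lower, both lists beside 1.61% and 2.42% of all such genes.

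Transcripts typical of other cells were also counted in T cells, in amounts that differed between libraries. Cxcl2, a chemokine transcript of activated myeloid cells, stood in T cells at 0.172% of its neutrophil level in Sham, 1.36% in AAA_7 and 0.798% in AAA_14. Il1b stood at 0.473%, 3.51% and 1.19%. Ier3 stood at 1.54%, 3.8% and 0.803%, and had a UMI in 2.10%, 12.2% and 3.86% of T cells at median depths of 4387.5, 2824 and 6271.5 UMIs. Nfkbia stood at 23.3%, 7.8% and 13.1% of its neutrophil level, above both. The summed level of the 11 neutrophil markers in T cells was 121, 307 and 336 CPM and that of the 11 phagocyte markers 30.6, 244 and 143 CPM. The 10 B cell markers summed to 332, 307 and 2354 CPM in T cells, the 5 plasma cell markers to 9.78, 32.1 and 1099 CPM and the 5 erythroid markers to 391, 4.08 and 2114 CPM. The part of RNA from other cells in the Ier3 and other values of T cells was not tested.

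T cells of different kinds again made up the class in each library. Cluster 1, led by Lef1 and Dapl1, genes of naive T cells, held 315 of 428 class cells in Sham, 180 of 466 in AAA_7 and 414 of 906 in AAA_14. Within it the list summed to 4186, 5391 and 4909.8 CPM, and AAA_7 against Sham had 3 of 22 genes higher and 0 lower, beside 15.4% and 4.2% of all genes. In the class it was 14 of 25. The 3 were Junb at 1.18, Nfkbid at 1.12 and Nfkbia at 1.03, and the median was 0.23 beside 0.30 for all genes. Cluster 6, led by Izumo1r and Ctla4, markers of regulatory and activated T cells, had a higher summed level of 11489 CPM in AAA_7 and 7709 CPM in AAA_14. AAA_14 against AAA_7 had 3 higher and 7 lower of 25 genes there, beside 6.75% and 4.42% of all genes, with a median of -0.17. Among them Junb, Nr4a3 and Nr4a1 were lower in AAA_14, at -1.26, -2.12 and -1.26, while Jun was higher at 1.41.

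B cells of AAA_14 had lower levels of several immediate early genes than those of Sham. Of 25 genes 1 was at least 2-fold higher and 5 lower, and 0 of 12 heat shock genes reached 2-fold, beside 21.5% of all genes higher and 4.12% lower. At 100 CPM or more, 0 of 17 immediate early genes were higher and 3 lower, and 0 of 11 heat shock genes were higher and 0 lower, beside 8.43% and 4.38% of all such genes. The median was -0.38, against 0.30 for all genes. Over the 2 lists together 6 genes were called, which came to 3 at a mitochondrial limit of 20% or with cells thinned to 1000 UMIs and to 12 after centring on the median of all genes. Klf4 measured 143, 89.1 and 55.5 CPM in Sham, AAA_7 and AAA_14 and had the lowest ratio, -1.37 (-1.58 to -1.15). Nr4a3 and Egr3 were both at -1.25, Fos at -1.20 (-1.30 to -1.10) and Nr4a1 at -1.10. The higher gene was Ier3, at 2.12, which stood in B cells at 0.973% and 2.17% of its neutrophil level in Sham and AAA_14, beside 0.233% and 1.35% for Cxcl2. The neutrophil markers summed to 161 CPM in B cells of Sham and 2375 CPM in those of AAA_14. Plasma cell markers summed there to 334 and 2689 CPM and erythroid markers to 1666 and 2976 CPM, and the part of these was not tested.

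Fewer genes were lower in AAA_14 within B cell clusters. Cluster 0, led by Fcmr and Fcer2a, held 107 class cells in Sham and 732 in AAA_14, and cluster 3, led by Irs2, Ebf1 and Ccr7, 299 and 262. AAA_14 against Sham had 1 higher and 1 lower of 24 immediate early genes in cluster 0, beside 18.1% and 4.49% of all genes. It had 1 higher and 2 lower of 24 in cluster 3, beside 11.5% and 3.5%, where Fos was -1.25 and Klf4 -1.14. In cluster 0 Fos was -0.25 and Klf4 -1.72. Cluster 15, led by Mef2b and Rgs13, genes of germinal centre B cells, held 209 class cells in AAA_14, where the list summed to 2147 CPM, below the 7448 and 10095 CPM of clusters 0 and 3 of that library.

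B cells of the library titled AAA_7 against Sham had 6 of 25 immediate early genes at least 2-fold higher and 2 lower, and 2 of 12 heat shock genes higher and 1 lower, beside 13.3% of all genes higher and 4.39% lower. Among genes with a mean of at least 100 CPM, 2 of 18 immediate early genes were higher and 2 lower. Heat shock genes had 2 of 11 higher and 0 lower, both lists beside 7.33% and 3.31% of all such genes. Ier3 was at 4.91, Nr4a3 at 1.76, Nfkbia at 1.24, Atf3 at 1.09, Nfkbid at 1.08 and Nr4a2 at 1.02. Ier3 measured 3.6 and 117 CPM in Sham and AAA_7, which was 0.973% and 4.08% of its neutrophil level, beside 0.233% and 1.18% for Cxcl2. Phagocyte markers summed to 34.8 and 288 CPM and neutrophil markers to 161 and 594 CPM in these B cells. T cell and erythroid markers went the other way, at 462 and 102 CPM and 1666 and 6.0 CPM. The part of RNA from other cells was not tested. Fos and Jun were the lower genes, at -1.74 (-1.96 to -1.53) and -1.27 (-1.41 to -1.13). The same opposition of Fos and Nfkbia as in neutrophils was present. Between clusters the counts were unlike. AAA_7 against Sham had 10 of 24 genes higher and 2 lower in cluster 3, beside 12% and 6.29% of all genes, and 3 higher and 5 lower of 22 in cluster 0, beside 16.7% and 3.84%. Fos was -1.41 in cluster 0 and -1.41 in cluster 3, and Jun -1.45 and -1.51. AAA_14 against AAA_7 had 0 of 25 immediate early genes higher and 7 lower and 2 of 12 heat shock genes lower, beside 10.2% and 3.68% of all genes, with Nr4a3 at -3.01, Ier3 at -2.79, Nr4a2 at -1.65, Egr3 at -1.64 and Junb at -1.23. With a mean of 100 CPM or more, 0 of 17 immediate early genes were higher and 4 lower. The heat shock list had 0 of 11 higher and 2 lower, both lists beside 3.79% and 2.97% of all such genes.

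NK cells, which kill infected or altered cells, showed few differences between AAA_14 and Sham. Of 21 tested immediate early genes 0 were at least 2-fold higher and 2 lower, and 0 of 11 heat shock genes reached 2-fold, beside 15.4% of all genes higher and 1.88% lower. Of genes at a mean of 100 CPM or more, 0 of 17 immediate early genes were higher and 1 lower. Heat shock genes had 0 of 11 higher and 0 lower, both lists beside 7.95% and 2.17% of all such genes. The lower genes were Fos at -1.08 (-1.44 to -0.73) and Myc at -1.03. The library titled AAA_7 against Sham had 1 higher (Nfkbid, 1.68) and 1 lower (Fos, -1.46 (-1.86 to -1.08)) of 22, but 4 of 11 heat shock genes higher and 0 lower, beside 16.2% and 3.29% of all genes. At 100 CPM or more, 1 of 19 immediate early genes was higher and 1 lower, and 4 of 11 heat shock genes were higher and 0 lower, beside 9.78% and 3.28% of all such genes. AAA_14 against AAA_7 had 0 of 22 higher and 4 lower, with Nfkbid at -1.94, Atf3 at -1.83, Myc at -1.08 and Nfkbia at -1.04 (-0.92 without the top cell of each library), and 3 of 11 heat shock genes lower, beside 3.45% and 2.13% of all genes. Among genes with a mean of at least 100 CPM, 0 of 17 immediate early genes were higher and 2 lower. The heat shock list had 0 of 11 higher and 3 lower, both lists beside 1.66% and 1.39% of all such genes.

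The inducible HSP70 pair Hspa1a and Hspa1b was higher in lymphocytes of the library titled AAA_7 than in those of Sham and AAA_14. In NK cells Hspa1b measured 678 CPM in Sham, 4119.9 CPM in the library titled AAA_7 and 655 CPM in AAA_14. In B cells it measured 2952, 6600.4 and 1791 CPM and in T cells 1172, 2558 and 1392 CPM in the same order. The AAA_7 level stood above those of the other two libraries in all 3 classes. Hspa1a was lower than Hspa1b in each and had the same order, at 363, 1922 and 328 CPM in NK cells, 1713, 3675 and 1163 CPM in B cells and 649, 1354 and 876 CPM in T cells. The log2 ratios of AAA_7 against Sham were 2.60 (2.39 to 2.83) for Hspa1b and 2.40 (2.11 to 2.72) for Hspa1a in NK cells, 1.16 and 1.10 in B cells. For T cells they were 1.13 and 1.06. AAA_14 against AAA_7 gave -2.65 and -2.55 in NK cells and -1.88 and -1.66 in B cells. Against Sham, AAA_14 gave -0.052 and -0.15 in NK cells, within 2-fold. At equal depth Hspa1b had a UMI in 43.1%, 68.8% and 34.2% of NK cells in Sham, AAA_7 and AAA_14 (68.5%, 80.1% and 64.6% before thinning), and in 19.1%, 17.7% and 18.2% of neutrophils, at median depths of 3439, 2919 and 6319 UMIs in NK cells and 3329, 1740 and 3915.5 in neutrophils.

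The NK cell difference was also present in cluster 8, which held nearly all NK cells, with Hspa1b at 2.59 for AAA_7 against Sham. It was smaller within the other lymphocyte clusters, at 1.01 in T cell cluster 1 and 0.74 and 0.93 in B cell clusters 0 and 3, so the B cell value was under 2-fold within both clusters. In NK cells Hsph1, an HSP110 chaperone that works with HSP70, was higher in AAA_7 by 1.57, and Dnajb1, its HSP40 partner, by 1.29. In B cells of AAA_7 against Sham Hspb1, the small heat shock protein HSP27, was lower at -1.17, from 87.6 to 38.6 CPM. In phagocytes AAA_14 had less Hspa1b than AAA_7 in clusters 4, 5 and 9, at -1.30, -1.32 and -1.78, and -0.20 in cluster 10. Hsp90aa1, the inducible HSP90, was -1.29, -1.04, -1.42 and -0.12 in these 4. Of 12 heat shock genes 4, 5, 5 and 0 were at least 2-fold lower and 0, 0, 1 and 1 higher in clusters 4, 5, 9 and 10, where the whole class had 0 of either. Of all genes 6.15%, 2.32%, 6.06% and 3.36% were lower and 5.01%, 4.65%, 5.13% and 5.07% higher there.

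**Figure D5:**
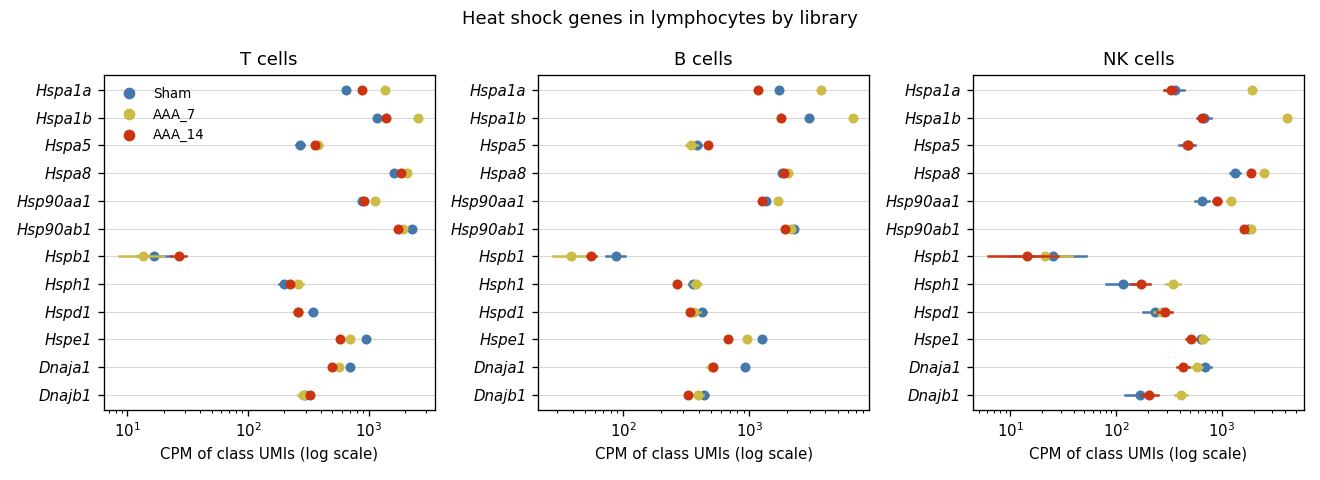
Levels (CPM, log axis) of the 12 heat shock genes in T, B and NK cells of the 3 libraries, with lines for exact 95% counting intervals. In NK cells Hspa1b stands at 4119.9 CPM in the library titled AAA_7 against 678 and 655 CPM in Sham and AAA_14, while Hspa8 spans 1334 to 2519 CPM.

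The constitutive chaperones were more even. Hspa8, the HSC70 of unstressed cells, measured 1633, 2058 and 1863 CPM in T cells and 1806, 2009.9 and 1869.8 CPM in B cells in Sham, AAA_7 and AAA_14. Hsp90ab1, the constitutive HSP90, measured 2292, 1912 and 1762 CPM and 2237, 2124 and 1924 CPM. None of the 13 comparisons put Hspa8, Hsp90ab1 or Hsp90aa1 past 2-fold. Hspa5, the endoplasmic reticulum chaperone BiP, was past 2-fold in neutrophils of AAA_7 against Sham alone, at 1.32, from 223 to 559 CPM. The mitochondrial chaperonin pair Hspd1 (HSP60) and Hspe1 (HSP10) was higher in lymphocytes than in neutrophils, with Hspe1 at 1264, 955 and 678 CPM in B cells and 107, 185 and 72.7 CPM in neutrophils. Dnaja1, an HSP40 co-chaperone, was highest in Sham in B and T cells, at 928, 504 and 517 CPM and 701, 566 and 499 CPM. Dnajb1 measured 434, 392 and 324 CPM in B cells.

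Hspa1a and Hspa1b are near-identical copies on the minus strand of chromosome 17, at chr17:34969190-34972156 and chr17:34956436-34959238 (GRCm38), each of 1 exon and 9951 bases apart. Their coding sequences share 88.4% of 31-base words, so reads from there could be assigned to either, but their 3′ UTRs, from which 3′ libraries mostly read, share 0. Their promoters differ at 3 of 250 bases. Hspe1, at chr1:55088132-55091307 on the plus strand of chromosome 1, and Hspd1, at chr1:55077835-55088243 on the minus strand, start 111 bases from each other in opposite directions, and their annotated 5′ ends overlap. The RefSeq promoters of the HSP70 pair are chr17:34972157-34972406 and chr17:34959239-34959488, and 30 bases of the Hspe1 promoter are chr1:55088053-55088082. They are shown because these genes hold the binding pattern of heat shock factor, inverted GAA units. Capitals mark matches to GAANNTTC and, in Hspe1, longer runs of the same units.
Hspa1a: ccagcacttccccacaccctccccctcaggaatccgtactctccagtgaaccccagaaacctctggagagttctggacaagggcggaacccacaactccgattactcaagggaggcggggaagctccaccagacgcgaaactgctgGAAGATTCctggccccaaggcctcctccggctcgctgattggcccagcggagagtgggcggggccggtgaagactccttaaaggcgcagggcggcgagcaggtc
Hspa1b: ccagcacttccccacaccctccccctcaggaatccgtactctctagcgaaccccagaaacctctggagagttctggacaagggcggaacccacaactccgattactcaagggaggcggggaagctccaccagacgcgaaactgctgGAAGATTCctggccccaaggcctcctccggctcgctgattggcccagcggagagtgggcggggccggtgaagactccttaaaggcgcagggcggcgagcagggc
Hspe1: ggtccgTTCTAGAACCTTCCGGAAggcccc
In Hspa1a and Hspa1b the match lies 104 to 97 bases before the start. GAANNTTC was in 6 of the 9 heat shock genes with a promoter in the table (Hspa1a, Hspa1b, Hspb1, Hspd1, Hspe1 and Dnaja1), against 2 of 20 immediate early genes (Jun and Nfkbid) and 7.73% of all genes of the table. The 3-unit heat shock element, which contains it, was in 2 of the 9 (Hspd1 and Hspe1), against 0.514% of genes. The endoplasmic reticulum stress element, by name, was in Hspa5 alone of the 9, against 0.13% of genes, and TGACG in 5 of 9. The windows of Hspd1 and Hspe1 overlap. Their matches to GAANNTTC, the 3-unit element and TGACG lie on the same bases, read from opposite strands. Each such stretch was therefore counted for both genes of the pair.

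Single cells of a class varied widely. With each cell thinned to 1000 UMIs, Sham neutrophils carried a median of 17 immediate early UMIs, with 10% of cells at or below 4 and 10% at or above 60.1. AAA_14 neutrophils had a median of 27 with 4 and 67 at these limits, and AAA_7 neutrophils 42 with 16 and 71. The low tail was thus thin in AAA_7. For heat shock genes, AAA_7 B cells had a median of 16 and a highest cell of 164, against 11.5 and 88 in Sham and 11 and 49 in AAA_14. In NK cells the medians were 7, 12 and 7. Across cells, as a description, Hspa1a and Hspa1b UMIs correlated at Pearson's r of 0.66 in NK cells and 0.73 in B cells of AAA_7. In neutrophils Nfkbia and Nfkbiz correlated at 0.71, 0.34 and 0.62 in Sham, AAA_7 and AAA_14, over 110, 665 and 808 cells, while Fos and Nfkbia stood at -0.041, 0.019 and -0.040. Cells of a library share its handling and depth was equal by construction. The summed immediate early and heat shock UMIs of a cell were at most weakly related, with r between -0.08 and 0.34 over classes and libraries.

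Other genes of the same pathways, in 7 lists of 102 genes, were counted beside the 37. In neutrophils of the library titled AAA_7 against Sham, the NF-κB path, that is its subunits, kinases and feedback genes, had 11 higher and 0 lower of 12 tested genes, beside 29.3% of all genes higher and 8.38% lower, with a median of 2.28, led by Traf1 at 3.81 and Nfkbie at 3.49. For AAA_14 against AAA_7 it had 0 higher and 10 lower of 13, beside 10.6% and 11.3%, and for AAA_14 against Sham 2 higher and 0 lower of 13, beside 19.7% and 3.44%, with a median of 0.64. The NF-κB path was thus highest in AAA_7 too. Endoplasmic reticulum stress genes, the programme that Hspa5 is known to belong to, had 10 higher and 0 lower of 14 in AAA_7 against Sham. They had 10 higher and 0 lower of 15 in AAA_14 against Sham, read against the same shares of all genes. Hspa5 itself was within 2-fold in AAA_14 against Sham, at 0.54. Plasma cell markers summed to 14.7, 545 and 1309 CPM in neutrophils of Sham, AAA_7 and AAA_14. Their part in these counts was not tested. Other early genes had 9 higher and 0 lower of 18 in T cells of AAA_7 against Sham, beside 23.1% and 2.61% of all genes, among them Ptgs2, the inducible cyclooxygenase, at 181 against 2.04 CPM. In phagocytes Ptgs2 was 946 CPM in AAA_7 and 228 CPM in AAA_14. The part of RNA from other cells in the T cell value was not tested. The heat shock factors and co-chaperones had 0 higher and 0 lower of 15 in NK cells of AAA_7 against Sham, beside 16.2% and 3.29% of all genes, and 2 higher and 1 lower of 15 in neutrophils. The chaperonin subunits had 5 higher and 0 lower of 8 in NK cells of AAA_14 against Sham, beside 15.4% and 1.88%. For AAA_14 against AAA_7 in neutrophils, AP-1 and CREB partners had 0 higher and 5 lower of 10 and the MAP kinase path and its feedback genes 0 higher and 3 lower of 14, beside 10.6% higher and 11.3% lower of all genes.

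Gene structure, which the choice of genes did not use, was alike in span and unlike in exons. The median span was 5162 bases for immediate early and 5537.5 bases for heat shock genes. It was 18270.5 bases for all 20468 protein-coding genes of the files that have an annotated 3′ UTR, the background used here. Exons and 3′ UTR were those of the transcript with the longest coding sequence. The median number of exons was 4, 9 and 7 in the same order. Single-exon genes made up 5 of 25 immediate early and 2 of 12 heat shock genes, against 4.71% of all. ATTTA, the core of the AU-rich element that shortens mRNA life, stood in the annotated 3′ UTR at a median of 2.53 copies per 1000 bases in immediate early genes, 2.14 in heat shock genes and 1.13 in all. The median 3′ UTR had 982, 726.5 and 801 bases, and at least 3 copies were in 15 of 25 immediate early genes, 2 of 12 heat shock genes and 32.3% of all, a count that grows with length.

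Each difference above is one between single libraries of pooled aortas, and its interval covers counting error only. Library, treatment, kind of cells caught and mitochondrial share cannot be told apart across the 3 libraries.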

How the data were processed

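CD45-positive cells of 3 libraries were measured, 1 per group. What the authors deposited are raw UMI counts for each barcode and gene. Per the file headers Cell Ranger 6.1.2 wrote them. Cell Ranger, Seurat and mm10 are named in the submitters' processing notes, without role or order. The annotation is not given in the sources used here. Deposited barcodes numbered 3785, 3496 and 10108 with 13677839, 13341534 and 67243700 UMIs in Sham, AAA_7 and AAA_14. Groups came from the titles.

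Cells were filtered and assigned to classes from fixed markers as described above. UMIs of the cells of a class were added up within each library and given as CPM with exact Poisson 95% intervals. The log2 ratio of 2 CPM values was taken after adding 0.5 to each sum, with exact conditional binomial intervals. Shares of cells carry exact Clopper-Pearson intervals. All intervals cover counting error only. With 1 library per group no p-value was computed. A class was compared where each of the 2 libraries held 50 cells of it or more, which gave 13 comparisons. A gene was tested from 30 UMIs over the 2 libraries and called at 2-fold or more. The minimum of 100 CPM was set on the mean of the 2 libraries compared. Named genes are those called whose interval excludes 0, at most 10 per direction, the most abundant genes and the 37 by role. From the 7 related lists at most 4 genes were named per comparison. The members and all lists were chosen with earlier results of these data known.

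Cells with markers of several classes were left unassigned, which also takes some doublets. Scrublet's automatic threshold called 1, 0 and 0 cells, so it was not used, and removal of 12, 83 and 224 cells at 0.8% per 1000 cells is an alternative. Clusters were made with scanpy 1.11.5 and leidenalg 0.10.2 from 2000 variable genes without the 37, 30 components and 15 neighbours at a resolution of 1. Scaling factors of an alternative came from edgeR 4.0.16 (TMM). Other alternatives varied the mitochondrial limit, the gene minimum, the counts added, the depth and the class rule. The ratio code was tested on simulated counts. Gene structure came from the GTF of GRCm38 and promoters from the RefSeq table, which held 29 of the 37 genes. The full lists of other cell types' markers are summarised only where they touch a result.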

Additional observations from a re-analysis of the deposited data

How the results depend on the processing

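Every median, count and ratio was computed again under the alternatives, 1 choice at a time. Recomputed medians moved by less than their spread 177 times for immediate early genes and 178 times for heat shock genes. They moved further 9 and 7 times and were counted as reversed 2 and 3 times. Medians that moved further could also change sign, so sign changes outnumbered the reversals counted. Among these, the immediate early median of neutrophils (AAA_14 against Sham) went from 0.29 to -0.20 at a mitochondrial limit of 5%. The number of genes called stayed close 150 times and moved 25 times. Log2 ratios of single genes moved by less than their interval 1252 times, moved further 377 times and were counted as reversed 1 time. CPM levels stayed close 652 times and moved 358 times. The medians and counts of calls that moved further or were counted as reversed follow, with the ratio counted as reversed. The cause was not tested beyond what each choice changes by itself. With 5 counts added, the Egr2 ratio was -0.17 in neutrophils (AAA_14 against Sham) and the number of genes called was 1 in T cells (AAA_14 against Sham). With edgeR TMM factors, the immediate early median was 0.059 in T cells (AAA_14 against Sham), -0.35 in NK cells (AAA_14 against Sham) and the number of genes called was 1 in T cells (AAA_14 against Sham), 8 in T cells (AAA_7 against Sham), 4 in NK cells (AAA_14 against Sham). Without mitochondrial UMIs in the total, the number of genes called was 1 in T cells (AAA_14 against Sham), 7 in B cells (AAA_7 against Sham). Centred on the median of all tested genes, the immediate early median was -0.011 in T cells (AAA_14 against Sham) and the heat shock median was -0.31 in T cells (AAA_7 against Sham), -0.73 in B cells (AAA_14 against Sham) and the number of genes called was 8 in T cells (AAA_7 against Sham), 12 in B cells (AAA_14 against Sham), 7 in B cells (AAA_7 against Sham), 4 in NK cells (AAA_14 against Sham). With no filter beyond 1 UMI, the number of genes called was 5 in NK cells (AAA_14 against Sham). At a mitochondrial limit of 5%, the immediate early median was -0.20 in neutrophils (AAA_14 against Sham) and the heat shock median was 1.15 in neutrophils (AAA_7 against Sham), 0.11 in T cells (AAA_14 against AAA_7) and the number of genes called was 15 in T cells (AAA_14 against AAA_7), 16 in B cells (AAA_14 against AAA_7). Lymphocytes of Sham were too few at this limit for a comparison. At a limit of 20%, the number of genes called was 3 in B cells (AAA_14 against Sham), 10 in NK cells (AAA_7 against Sham). With the highest Scrublet scores removed, the number of genes called was 1 in T cells (AAA_14 against Sham). With cells thinned to 1000 UMIs, the immediate early median was -0.19 in B cells (AAA_14 against AAA_7) and the heat shock median was -0.34 in T cells (AAA_14 against AAA_7) and the number of genes called was 3 in B cells (AAA_14 against Sham), 1 in NK cells (AAA_14 against Sham). With classes from clusters, the number of genes called was 4 in T cells (AAA_14 against Sham), 5 in NK cells (AAA_14 against Sham). With means over cells of log2 levels, the immediate early median was -0.083 in neutrophils (AAA_14 against AAA_7), 0.062 in T cells (AAA_14 against Sham), 0.24 in T cells (AAA_7 against Sham), -0.042 in T cells (AAA_14 against AAA_7), 0.035 in B cells (AAA_14 against AAA_7), -0.12 in NK cells (AAA_14 against AAA_7) and the heat shock median was -0.080 in neutrophils (AAA_7 against Sham), 0.041 in neutrophils (AAA_14 against AAA_7), 0.035 in T cells (AAA_14 against AAA_7), 0.020 in B cells (AAA_14 against Sham), 0.14 in B cells (AAA_14 against AAA_7). With a lead of 1 marker, the number of genes called was 4 in T cells (AAA_14 against Sham). With genes of at least 100 CPM, the number of genes called was 9 in neutrophils (AAA_14 against AAA_7), 3 in B cells (AAA_14 against Sham), 6 in B cells (AAA_7 against Sham), 1 in NK cells (AAA_14 against Sham). The leads of 1 marker, the minimum of 100 CPM and the values within clusters were chosen after seeing the data. Between 1000 and 2000 UMIs per cell, 135 of the shares of cells with a UMI moved beyond their interval and 15 did not, since a share rises with depth. No paired analysis was possible because each group has 1 library, and for the same reason no replicate could be left out. Depth limits genes of few UMIs, whose intervals are wide.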
